A study of Mus musculus with 12 samples.

Results

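The 31 genes described here encode the enzymes of cholesterol synthesis and of fatty acid synthesis and desaturation, together with the proteins that control them. They were fixed by name as 17 sterol enzymes, 6 regulators or sterol carriers and 8 fatty acid enzymes, out of 35521 mouse genes to which reads could be summed. The rule used no measured value, but the genes were chosen with earlier results of these data known. All 31 passed the filter on low counts and stood among the 12555 genes tested. They were measured by bulk RNA-Seq in 4T1, a mammary carcinoma line from BALB/c mice, in 3 groups of 4 libraries.

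Tu-Gr1+CD11b+–primed 4T1 cells (labelled 4T1_MDSC_T) had been kept for 48 hours across a Transwell membrane with 0.4 μm pores from Gr1+ cells taken from the tumors of 4T1-bearing mice. Spl-Gr1+CD11b+–primed 4T1 cells (4T1_MDSC_S) had been kept in the same way with Gr1+ cells from the spleens of such mice, and parental 4T1 cells (4T1) had no Gr1+ cells. The Gr1+ cells were collected by magnetic columns at day 21 after tumor injection according to the labels, and the study's methods give a later day. Their age is not given, and whether the parental wells held an empty insert, or whether Gr1+ cells were pooled over mice, is not stated. All groups are a single cell line in culture, without stroma or an immune system of their own. No source says that the 4 libraries of a group came from separate cocultures, so the p-values measure the spread between these libraries, which may be technical.

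Cells make cholesterol from acetyl-CoA through mevalonate, squalene and lanosterol, and make palmitate from the same acetyl-CoA through malonyl-CoA. Both routes are transcribed under the sterol regulatory element–binding proteins (SREBPs), which are held in the endoplasmic reticulum by INSIG proteins through their escort SCAP while sterols are plentiful, and are carried to the Golgi apparatus and cleaved when sterols run low. SREBP2, encoded by *Srebf2*, acts mainly on sterol genes, whereas SREBP1, encoded by *Srebf1*, acts mainly on fatty acid genes. Carcinoma cells commonly depend on their own fatty acid synthesis for membranes.

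Each library held between 24566183 and 31637755 reads on the listed transcripts. Levels are given as CPM, that is counts scaled to library size, after scaling by trimmed mean of M values (TMM). The mammary epithelial markers *Epcam*, *Cdh1*, *Krt8*, *Krt18* and *Krt7* were present in all 12 libraries, and 4 of these 5 passed the test as lower in Tu-Gr1+CD11b+–primed cells and 3 in Spl-Gr1+CD11b+–primed cells than in parental cells, while *Epcam* was higher in the latter (log2 fold change 0.30, adjusted p = 0.00573). Of 10 granulocyte and myeloid markers, 7, among them *Ptprc*, *Itgam* and *Ly6g*, reached at most 0.4 CPM in any library, and *Ngp* and *Camp* were at 0. The summed level of the 10 lay between 6.42 and 11.6 CPM in Tu-Gr1+CD11b+–primed, between 5.05 and 7.04 CPM in Spl-Gr1+CD11b+–primed and between 5.75 and 6.81 CPM in parental libraries. Of the other 3 markers, *Ltf* and *S100a8* passed the test as higher in Tu-Gr1+CD11b+–primed than in Spl-Gr1+CD11b+–primed cells (log2 fold changes 1.16 and 0.93), at no more than 5.18 and 3.84 CPM in any library. Both were also higher than in parental cells there, by 1.21 and 0.62 (adjusted p = 5.8e-05 and 0.0345), and the part of such transcripts in the results below was not tested. In such bulk samples, fewer cells of a type and less RNA per cell cannot be told apart.

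A pair of libraries stood apart. Replicate 3 of Spl-Gr1+CD11b+–primed cells had the lowest *Fasn* and *Acaca* of all 12 libraries and the largest share of reads on transcripts annotated as retained intron or as targets of nonsense-mediated decay (6.13%). Replicate 4 of the parental cells had 6.73% of its reads on mitochondrial transcripts, against 4.24% to 4.81% in the other parental libraries. This share also differed between groups. It was 2.52% to 3.15% in Spl-Gr1+CD11b+–primed and 2.09% to 2.53% in Tu-Gr1+CD11b+–primed libraries, below every parental library. Its part in the comparisons with parental cells was not tested. Results that rest on the pair of libraries named here are given below with and without them. For some genes, such as *Fasn*, *Fads2*, *Ebp* and *Sc5d*, parental replicates 3 and 4 lay together above or below the other parental libraries. No fit left out both of these replicates.

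Sequences upstream of 3 genes are shown because these genes stand for the different responses described below, namely a sterol enzyme that did not pass the test (*Hmgcs1*), a sterol enzyme that rose (*Sc5d*) and a fatty acid enzyme that fell (*Fasn*). Each is the 150 bases before the RefSeq start site on GRCm38.p6, at chr13:119690201-119690350 on the plus strand, chr9:42264301-42264450 on the minus strand and chr11:120824548-120824697 on the minus strand. Capitals mark the letters TCACNCCAC (the core of a sterol regulatory element), CCAAT (the box bound by NF-Y, a known partner of SREBPs) and CACGTG (an E-box), on either strand, where ATTGG is the reverse of CCAAT.
Hmgcs1: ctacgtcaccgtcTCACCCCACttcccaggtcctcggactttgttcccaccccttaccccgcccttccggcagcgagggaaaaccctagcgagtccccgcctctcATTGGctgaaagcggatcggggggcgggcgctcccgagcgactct
Sc5d: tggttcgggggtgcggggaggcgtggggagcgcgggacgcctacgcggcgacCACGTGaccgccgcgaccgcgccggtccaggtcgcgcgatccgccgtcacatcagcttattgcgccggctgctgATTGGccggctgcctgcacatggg
Fasn: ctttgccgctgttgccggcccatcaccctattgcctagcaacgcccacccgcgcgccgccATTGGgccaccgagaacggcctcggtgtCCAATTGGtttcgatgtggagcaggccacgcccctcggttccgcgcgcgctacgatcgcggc

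The *Hmgcs1* stretch holds TCACCCCAC and 1 CCAAT box, the *Sc5d* stretch holds CACGTG and 1 CCAAT box, and the *Fasn* stretch holds 3 CCAAT boxes, of which a pair overlaps in CCAATTGG. Windows from 250 bases before to 50 bases after a RefSeq start were at hand for 24 of the 31 genes, and *Fdps*, *Fdft1*, *Sqle*, *Stard4*, *Scd1*, *Scd2* and *Fads1* had none. CCAAT was found in 13 of the 14 windows of sterol enzymes, in 2 of 5 windows of regulators and in 2 of 5 windows of fatty acid enzymes, compared with 37.4% of all 32851 windows. TCACNCCAC was found in *Hmgcs1* alone among the 24 and in 1.24% of all windows. CACGTG stood in *Hsd17b7*, *Sc5d*, *Insig1* and *Scap*, that is 4 of 24, and in 7.15% of all windows. The RefSeq start used for *Fasn* lay 452 bases from the start of the *Fasn* transcript with the most reads. For *Sc5d* and *Hmgcs1* this distance was 100 and 95 bases. Among the other windows counted, it was 588 bases for *Dhcr7*, 453 for *Pmvk*, 243 for *Fads2* and 214 for *Msmo1*. The rest lay at most 105 bases away. These matches describe letters, and no binding was measured.

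By length-corrected level (TPM), *Fasn* was the highest of the 31 genes in parental cells at 174 ± 5.77 TPM (SD, n = 4), followed by *Scd2* at 152 ± 27.0 TPM and *Fdps* at 141 ± 11.5 TPM. Over the libraries, the range of *Scd2* overlapped with those of both *Fasn* and *Fdps*. *Acly* (89.3 ± 12.2 TPM) and *Msmo1* (79.1 ± 15.8 TPM) came next, also with overlapping ranges. The lowest were *Mvd* at 8.95 ± 1.04 TPM and *Tm7sf2* at 6.02 ± 1.16 TPM. Fatty acid enzymes therefore held 3 of the 4 highest places. TPM served here mainly to rank genes within parental cells, because on that scale the median of the tested genes was 0.49 (log2) higher in Tu-Gr1+CD11b+–primed and 0.42 higher in Spl-Gr1+CD11b+–primed than in parental cells, while in the fit to counts the medians were 0.02 and 0.02. Relative to that median, *Fasn* was still lower on the TPM scale, by log2 values of -0.74 and -0.38. Other genes differed from the fit to counts, such as *Srebf1* at 0.49 and 0.49, and *Dhcr7* at -0.14 and 0.33.

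**Figure D1:**
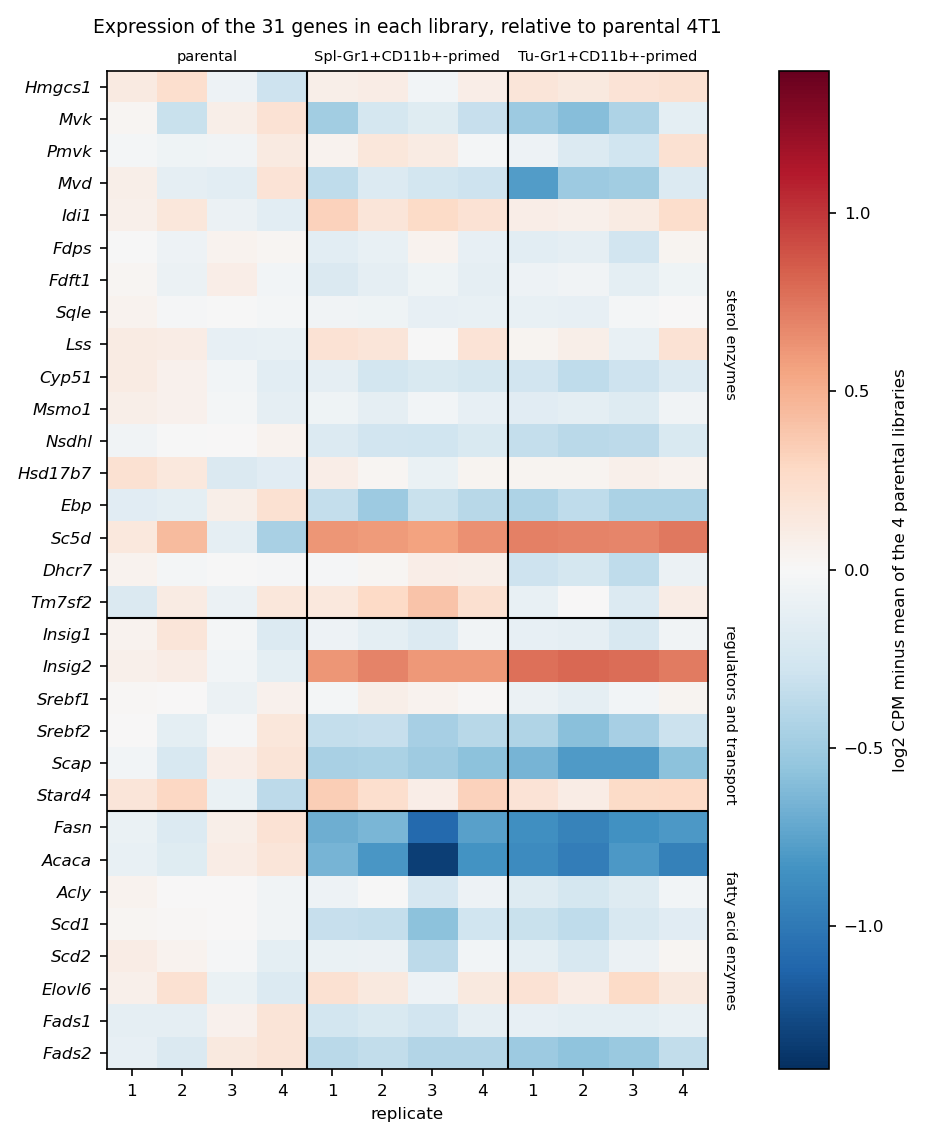
Log2 CPM of each of the 31 genes (rows, by class) in each of the 12 libraries (columns, by group), minus the mean of the 4 parental libraries; blue is lower and red higher. *Fasn* and *Acaca* are the darkest blue rows in both primed groups, *Insig2* and *Sc5d* are red in all 8 primed libraries, and most sterol enzymes stay close to white.

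To ask how exposure to each kind of Gr1+ cell changed lipid synthesis genes, both primed groups were compared with parental cells. The parental libraries are shared by these comparisons, so their values are given side by side and do not count as independent. The largest decreases lay in fatty acid synthesis. *Acaca* and *Fasn*, which commit acetyl-CoA to fatty acids and build palmitate, fell by 46.6% and 45.2% in Tu-Gr1+CD11b+–primed and by 46.0% and 42.2% in Spl-Gr1+CD11b+–primed cells. The sterol enzymes as a class moved little, with several decreases and 1 clear increase, *Sc5d*. The largest of these decreases, 28.7% (*Mvd*, Tu-Gr1+CD11b+–primed) and 23.9% (*Ebp*, Spl-Gr1+CD11b+–primed), were like those of the fatty acid enzyme *Fads2* (28.8% and 24.0%). Among the regulators, the escort gene *Scap* and *Srebf2* fell and *Insig2* rose.

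In numbers, by edgeR's quasi-likelihood test, adjusted by Benjamini-Hochberg, 13 of the 31 genes were called lower and 2 higher in Tu-Gr1+CD11b+–primed than in parental cells. Of all tested genes, 28% were called lower and 31.2% higher, 59.2% in either direction. In Spl-Gr1+CD11b+–primed cells, 12 of the 31 were called lower and 3 higher, with 22.5% and 25.7% of all tested genes (48.2% in either direction). By class, 5 of 8 fatty acid enzymes, 6 of 17 sterol enzymes and 2 of 6 regulators were lower in Tu-Gr1+CD11b+–primed cells. In Spl-Gr1+CD11b+–primed cells, the counts were 5 of 8, 5 of 17 and 2 of 6. The shares of sterol enzymes and regulators called lower are near those of all genes. The median log2 fold change of the 8 fatty acid enzymes was -0.21 in Tu-Gr1+CD11b+–primed and -0.30 in Spl-Gr1+CD11b+–primed cells, compared with -0.08 and -0.08 for the 17 sterol enzymes, -0.09 and -0.04 for the 6 regulators, and 0.02 and 0.02 for all tested genes.

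Genes whose 4 primed libraries all lay below or all above the 4 parental libraries gave a like picture. There were 11 such genes below and 2 above in Tu-Gr1+CD11b+–primed cells (26.9% and 28.6% of all genes tested) and 11 below and 3 above in Spl-Gr1+CD11b+–primed cells (18.3% and 21.3%). Of the 31, 10 were called lower in both primed groups: *Fasn*, *Acaca*, *Fads2*, *Scd1*, *Scap*, *Srebf2*, *Cyp51*, *Ebp*, *Mvk* and *Nsdhl*. *Insig2* and *Sc5d* were called higher in both. No gene was called in opposite directions, and 13 were called in neither comparison.

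**Figure D2:**
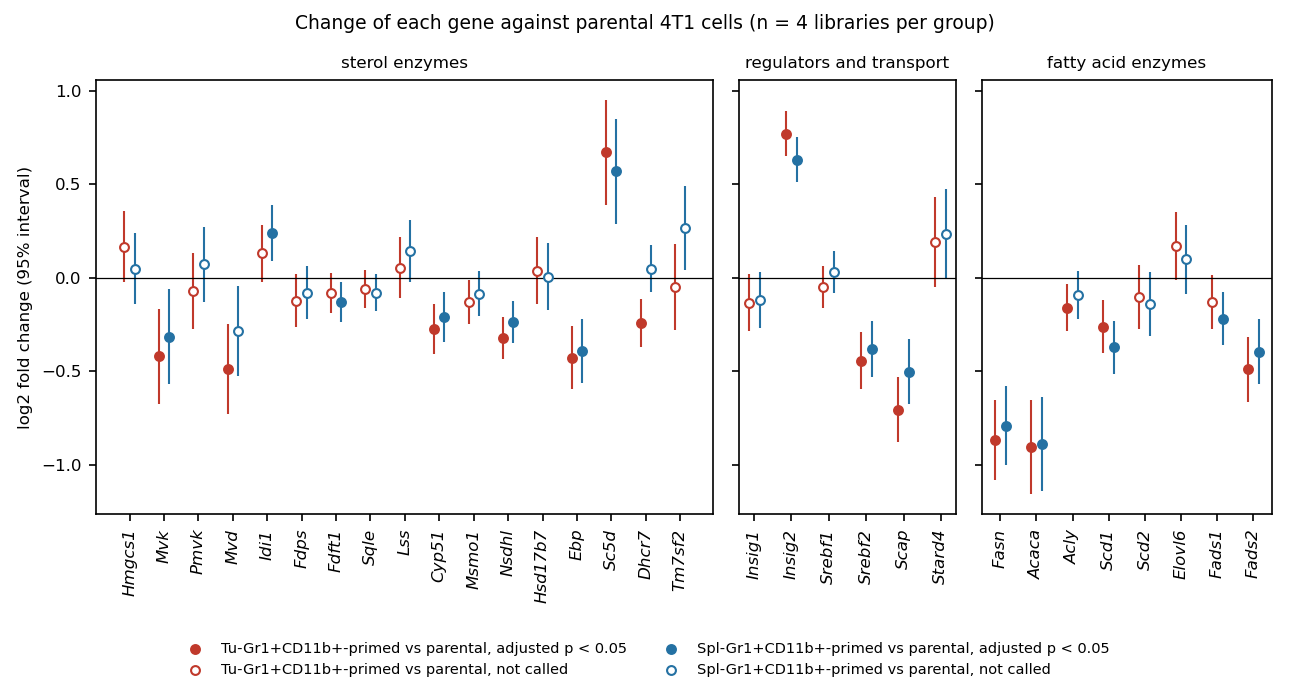
Log2 fold change against parental 4T1 (vertical axis, bars are 95% intervals, n = 4 libraries per group) for each gene in Tu-Gr1+CD11b+–primed (red) and Spl-Gr1+CD11b+–primed cells (blue); filled points passed an adjusted p of 0.05. *Acaca* and *Fasn* have the lowest points, at -0.91 and -0.87 in Tu-Gr1+CD11b+–primed cells, and *Insig2* the highest, at 0.77.

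*Fasn* (chr11:120805846-120824547, minus strand, GRCm38) encodes fatty acid synthase, the enzyme that assembles palmitate. It was measured at 1149, 1072, 1298 and 1416 CPM in parental replicates 1 to 4. In Spl-Gr1+CD11b+–primed cells it was at 763, 788, 575 and 726 CPM, and in Tu-Gr1+CD11b+–primed cells at 677, 643, 683 and 702 CPM. All 8 primed libraries lay below the lowest parental library, and the primed groups overlapped each other. The log2 fold change was -0.87 (SE 0.10) in Tu-Gr1+CD11b+–primed cells (edgeR's quasi-likelihood test, adjusted p = 8.24e-06) and -0.79 (SE 0.10) in Spl-Gr1+CD11b+–primed cells (adjusted p = 3.52e-05), which are 45.2% and 42.2% less than in parental cells. The latter was -0.72 without Spl-Gr1+CD11b+–primed replicate 3, and -0.38 with transcript length offsets (adjusted p = 0.0249).

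*Acaca* (chr11:84129672-84401651, plus strand) encodes acetyl-CoA carboxylase 1, which makes the malonyl-CoA that fatty acid synthase uses. Its parental libraries were at 259.9, 248, 302 and 315 CPM. The Spl-Gr1+CD11b+–primed libraries were at 178, 159.6, 112 and 157 CPM, and the Tu-Gr1+CD11b+–primed libraries at 152, 143, 160.1 and 145 CPM. Again no primed library reached the parental range, and Spl-Gr1+CD11b+–primed replicate 3 was the lowest of all. The log2 fold changes were -0.91 (SE 0.12, adjusted p = 2.22e-05) and -0.89 (SE 0.12, adjusted p = 5.42e-05) by edgeR's quasi-likelihood test, and -0.79 without that replicate in Spl-Gr1+CD11b+–primed cells.

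Of the desaturases, *Fads2* and *Scd1* fell in both comparisons. *Fads2*, the Δ6-desaturase of polyunsaturated fatty acids, was at 164, 153, 195 and 201 CPM in parental, at 136, 139, 133 and 133 CPM in Spl-Gr1+CD11b+–primed and at 125, 119, 124 and 139.9 CPM in Tu-Gr1+CD11b+–primed libraries. Both primed groups lay wholly below the parental one, with log2 fold changes of -0.49 (adjusted p = 0.000161) and -0.40 (adjusted p = 0.00128) for Tu-Gr1+CD11b+–primed and Spl-Gr1+CD11b+–primed cells. *Scd1*, the stearoyl-CoA desaturase that makes oleate, was at 104, 103, 102 and 98.5 CPM in parental, at 81.6, 80.6, 68.5 and 84.2 CPM in Spl-Gr1+CD11b+–primed and at 82.3, 79.8, 86.9 and 90.9 CPM in Tu-Gr1+CD11b+–primed libraries. It also showed no overlap with parental cells and fell by 0.26 (adjusted p = 0.00347) and 0.37 (adjusted p = 0.000458) on the log2 scale. With transcript length offsets its call in Tu-Gr1+CD11b+–primed cells was lost (-0.19, adjusted p = 0.157). Its close relative *Scd2*, with which reads could be shared, ranged from 613 to 806 CPM in primed and from 716 to 851 CPM in parental libraries and did not pass the test in either comparison (log2 fold changes -0.10 and -0.14).

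The other fatty acid enzymes were near the parental level. *Acly*, ATP citrate lyase, which supplies cytosolic acetyl-CoA to both routes, was called lower in Tu-Gr1+CD11b+–primed cells only by a small margin (log2 fold change -0.16, adjusted p = 0.0314), and 1 of the 4 libraries, at 353 CPM, reached the parental range of 348 to 373 CPM. Its call was lost under 10 of 22 alternatives. *Fads1*, the Δ5-desaturase, was called lower in Spl-Gr1+CD11b+–primed cells (log2 fold change -0.22, adjusted p = 0.0137) and not in Tu-Gr1+CD11b+–primed cells (-0.13, adjusted p = 0.105), and the difference between the primed groups was itself not called (0.09, adjusted p = 0.458). With transcript length offsets its call was lost (-0.15, adjusted p = 0.137). *Elovl6*, which extends palmitate to stearate, was at 185, 203, 164 and 153 CPM in parental, at 204, 192, 166 and 192 CPM in Spl-Gr1+CD11b+–primed and at 202, 188, 211 and 192 CPM in Tu-Gr1+CD11b+–primed libraries. Its groups overlapped, and its log2 fold changes of 0.17 and 0.10 did not pass the test (adjusted p = 0.102 and 0.363).

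**Figure D3:**
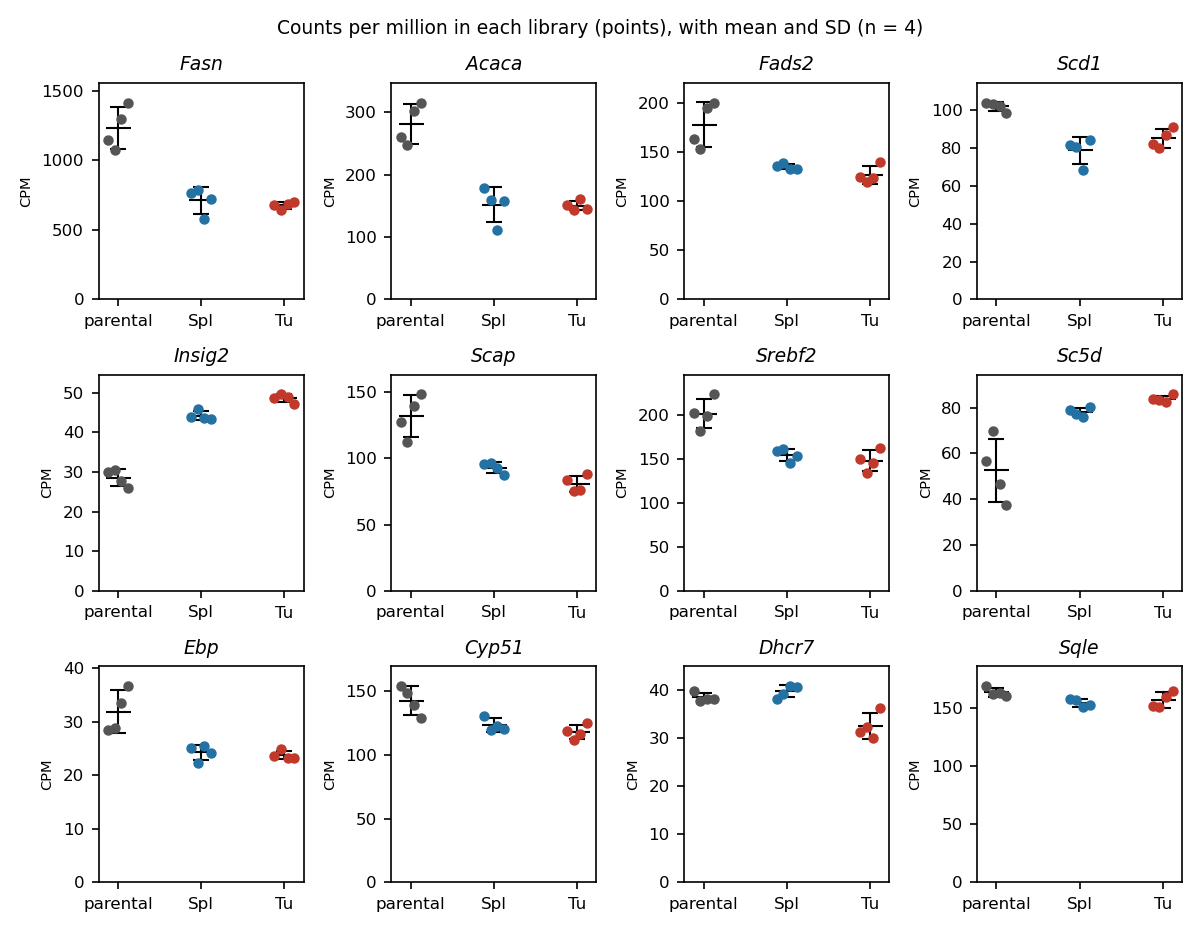
CPM of 12 genes (each panel its own linear axis from 0) in the 4 libraries of parental, Spl-Gr1+CD11b+–primed (Spl) and Tu-Gr1+CD11b+–primed (Tu) cells; points are libraries, bars the mean and SD. *Fasn* and *Acaca* primed libraries lie below every parental library, *Insig2* and *Sc5d* primed libraries above, and *Dhcr7* is lower in Tu-Gr1+CD11b+–primed cells alone.

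Of the regulators, *Insig2* (chr1:121304353-121332589, minus strand) had the smallest p of the 31 genes. It encodes an endoplasmic reticulum protein that retains the SCAP–SREBP complex. Its parental libraries were at 30.0, 30.6, 27.7 and 25.9 CPM, its Spl-Gr1+CD11b+–primed libraries at 43.9, 46.0, 43.6 and 43.5 CPM, and its Tu-Gr1+CD11b+–primed libraries at 48.8, 49.7, 49.1 and 47.1 CPM. The 3 groups did not overlap, with Tu-Gr1+CD11b+–primed cells the highest. The difference between the primed groups, 0.14 on the log2 scale, was not called, and with transcript length offsets it was -0.08. Against parental cells, *Insig2* rose by 70.3% in Tu-Gr1+CD11b+–primed (log2 fold change 0.77, SE 0.06, adjusted p = 2.28e-07 by edgeR's quasi-likelihood test) and by 54.8% in Spl-Gr1+CD11b+–primed cells (0.63, SE 0.06, adjusted p = 1.92e-06).

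*Scap* (chr9:110333288-110384950, plus strand), the escort protein, was at 127, 112, 139 and 148 CPM in parental, at 95.4, 96.7, 92.5 and 87.8 CPM in Spl-Gr1+CD11b+–primed and at 83.4, 75.8, 75.8 and 88.3 CPM in Tu-Gr1+CD11b+–primed libraries. Every primed library was lower than every parental library, and the log2 fold changes were -0.71 (SE 0.08, adjusted p = 8.59e-06) and -0.50 (SE 0.08, adjusted p = 0.000239) for Tu-Gr1+CD11b+–primed and Spl-Gr1+CD11b+–primed cells. *Srebf2* (chr15:82147181-82205379, plus strand) was at 202, 182, 199 and 223 CPM in parental, at 159, 161, 145 and 153 CPM in Spl-Gr1+CD11b+–primed and at 149.9, 134, 146 and 162 CPM in Tu-Gr1+CD11b+–primed libraries. It too was free of overlap with parental cells and fell by 0.45 (adjusted p = 0.000118) and 0.38 (adjusted p = 0.000668) on the log2 scale.

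*Srebf1*, the gene of the fatty acid–directed SREBP, was at 97.6, 97.1, 91.4 and 101 CPM in parental, at 94.96, 103, 99.8 and 98.0 CPM in Spl-Gr1+CD11b+–primed and at 91.6, 88.9, 93.9 and 99.3 CPM in Tu-Gr1+CD11b+–primed libraries. The groups overlapped, and the log2 fold changes of -0.05 (95% interval -0.16 to 0.06) and 0.03 (-0.08 to 0.14) did not pass the test. With offsets for transcript length, *Srebf1* was higher instead, by 0.52 in Tu-Gr1+CD11b+–primed (adjusted p = 0.00195) and by 0.52 in Spl-Gr1+CD11b+–primed cells (adjusted p = 0.00326), and 11.6% ± 2.47 of its reads (SD, n = 4) lay on transcripts not annotated as protein coding there, against 5.59% ± 1.82 in parental cells. The part of this share in the result was not tested. *Insig1*, a SREBP target and the partner of *Insig2* in retention, was at 137, 149, 130.3 and 116 CPM in parental, at 126, 120.4, 116 and 128 CPM in Spl-Gr1+CD11b+–primed and at 122, 121, 114 and 128 CPM in Tu-Gr1+CD11b+–primed libraries, with overlap and no call (-0.13 and -0.12). *Stard4*, a carrier of cholesterol between membranes, was at 78.6, 85.3, 65.3 and 53.9 CPM in parental, at 88.3, 82.1, 74.6 and 87.4 CPM in Spl-Gr1+CD11b+–primed and at 79.3, 75.0, 84.0 and 84.4 CPM in Tu-Gr1+CD11b+–primed libraries. Its parental spread covered most primed libraries, and it was not called (0.19 and 0.23, adjusted p = 0.163 and 0.104).

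In the mevalonate branch, the entry enzyme *Hmgcs1*, HMG-CoA synthase, was at 162, 176, 142 and 122 CPM in parental, at 157, 160.3, 145 and 159 CPM in Spl-Gr1+CD11b+–primed and at 168, 164, 170.4 and 173 CPM in Tu-Gr1+CD11b+–primed libraries. The parental range held all 8 primed libraries, and the log2 fold changes were 0.17 (adjusted p = 0.123) and 0.05 (adjusted p = 0.678). Of the later enzymes of this branch, *Mvk* fell in both comparisons and *Mvd* in 1. *Mvk*, mevalonate kinase, fell by 0.42 (adjusted p = 0.00736) and 0.32 (adjusted p = 0.0391), with overlap, and its call in Spl-Gr1+CD11b+–primed cells was lost under 8 of 22 alternatives. *Mvd*, mevalonate diphosphate decarboxylase, ranged from 7.81 to 11.8 CPM in Tu-Gr1+CD11b+–primed, from 10.6 to 11.8 CPM in Spl-Gr1+CD11b+–primed and from 12.2 to 15.5 CPM in parental libraries. It passed the test in Tu-Gr1+CD11b+–primed cells (log2 fold change -0.49, adjusted p = 0.0021) and narrowly missed it in Spl-Gr1+CD11b+–primed cells (-0.28, adjusted p = 0.0503), although neither group overlapped with parental cells. In Spl-Gr1+CD11b+–primed cells *Mvd* was called lower under 8 of 22 alternatives. With GC-content offsets, the decreases of *Mvk* and *Mvd* in Tu-Gr1+CD11b+–primed cells were -0.21 and -0.29. *Pmvk*, phosphomevalonate kinase, had log2 fold changes of -0.07 and 0.07.

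*Idi1*, the isomerase that makes dimethylallyl diphosphate, was at 97.5, 104, 88.1 and 83.8 CPM in parental, at 116, 104, 112 and 107 CPM in Spl-Gr1+CD11b+–primed and at 99.1, 98.1, 101 and 110.4 CPM in Tu-Gr1+CD11b+–primed libraries. It was called higher in Spl-Gr1+CD11b+–primed cells (0.24, adjusted p = 0.0124), where all 4 libraries lay above the parental ones, if by a small margin, and not in Tu-Gr1+CD11b+–primed cells (0.13, adjusted p = 0.127). The difference between the primed groups was not called (-0.11, adjusted p = 0.392), and with GC-content offsets the call in Spl-Gr1+CD11b+–primed cells was lost (0.09, adjusted p = 0.221). The prenyl and squalene enzymes moved little. *Fdps*, farnesyl diphosphate synthase, and *Sqle*, squalene epoxidase, were not called, with log2 fold changes between -0.12 and -0.06, and *Fdft1*, squalene synthase, was called lower in Spl-Gr1+CD11b+–primed cells by 0.13 (adjusted p = 0.0444), a call lost under 17 of 22 alternatives.

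After squalene, *Cyp51* and *Nsdhl* were lower in both comparisons. *Cyp51*, lanosterol 14α-demethylase, was at 154, 149, 139 and 129 CPM in parental, at 131, 119, 123 and 120.3 CPM in Spl-Gr1+CD11b+–primed and at 118, 112, 116 and 125 CPM in Tu-Gr1+CD11b+–primed libraries, so that 1 Spl-Gr1+CD11b+–primed library reached the parental range. It fell by 0.28 (adjusted p = 0.00174) and 0.21 (adjusted p = 0.0128). *Nsdhl*, a sterol dehydrogenase of the same stretch, was at 31.8, 32.9, 33.2 and 34.2 CPM in parental, at 29.0, 27.4, 27.2 and 28.5 CPM in Spl-Gr1+CD11b+–primed and at 26.2, 25.4, 25.6 and 28.5 CPM in Tu-Gr1+CD11b+–primed libraries. Its primed libraries were all below the parental ones, and it fell by 0.32 (adjusted p = 0.000153) and 0.24 (adjusted p = 0.00223). *Lss*, lanosterol synthase, *Msmo1*, a methyl sterol oxidase, and *Hsd17b7*, a ketosteroid reductase, had log2 fold changes between -0.13 and 0.14 and were not called. *Msmo1* was called lower in Tu-Gr1+CD11b+–primed cells under 6 of 22 alternatives.

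The late steps moved in different directions. *Ebp*, the sterol isomerase just before *Sc5d*, was at 28.4, 28.8, 33.5 and 36.7 CPM in parental, at 25.1, 22.3, 25.4 and 24.1 CPM in Spl-Gr1+CD11b+–primed and at 23.5, 24.8, 23.2 and 23.2 CPM in Tu-Gr1+CD11b+–primed libraries. It fell without overlap by 0.43 (adjusted p = 0.000411) and 0.39 (adjusted p = 0.00117), and with transcript length offsets the latter was no longer called (-0.28, adjusted p = 0.0535). *Sc5d* (chr9:42251595-42264256, minus strand), the lathosterol desaturase, was at 56.8, 69.6, 46.9 and 37.3 CPM in parental, at 78.9, 77.4, 76.0 and 80.1 CPM in Spl-Gr1+CD11b+–primed and at 83.6, 83.2, 82.5 and 85.9 CPM in Tu-Gr1+CD11b+–primed libraries. All 8 primed libraries lay above the parental ones, which spread widely, with replicate 4 the lowest. The log2 fold changes were 0.67 (SE 0.13, adjusted p = 0.000578) and 0.57 (SE 0.13, adjusted p = 0.00276) by edgeR's quasi-likelihood test, and without parental replicate 4 they were 0.54 and 0.43. With transcript length offsets the latter was 0.37 (adjusted p = 0.0156).

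*Tm7sf2*, a sterol reductase and the lowest of the 31 genes, was at 5.39, 6.75, 5.87 and 6.95 CPM in parental, at 6.90, 7.55, 8.24 and 7.27 CPM in Spl-Gr1+CD11b+–primed and at 5.78, 6.21, 5.42 and 6.70 CPM in Tu-Gr1+CD11b+–primed libraries. The Spl-Gr1+CD11b+–primed libraries tended to be the highest, with 1 parental library reaching their range, but the difference from parental cells missed the threshold (0.26, adjusted p = 0.0508). This difference passed under 7 of 22 alternatives.

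**Figure D4:**
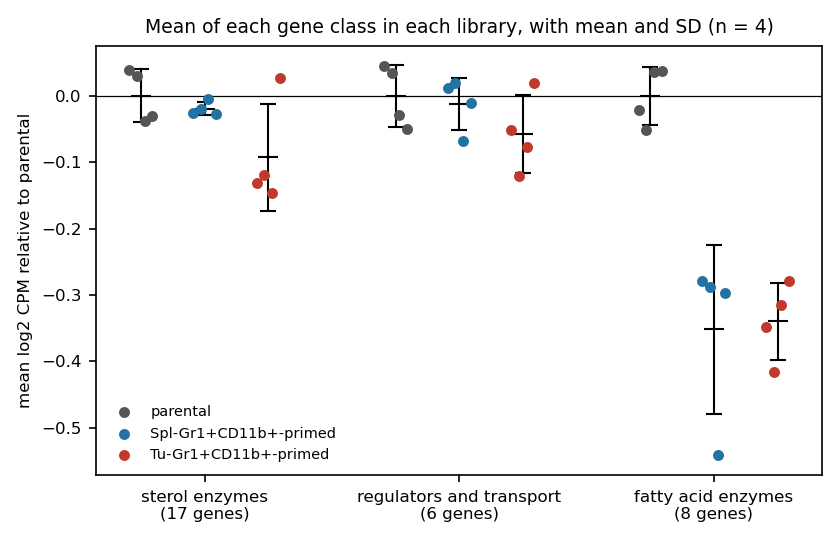
Mean log2 CPM over the genes of each class, relative to the parental mean, in each library (points), with the mean and SD of 4 libraries (bars). The fatty acid class lies at -0.34 ± 0.06 in Tu-Gr1+CD11b+–primed and -0.35 ± 0.13 in Spl-Gr1+CD11b+–primed libraries, and the sterol class at -0.09 ± 0.08 and -0.02 ± 0.01. *Fasn* and *Acaca* are the genes of the fatty acid class that fell most.

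Averaged over the class in each library, the 8 fatty acid enzymes stood at -0.34 ± 0.06 (SD, n = 4) in Tu-Gr1+CD11b+–primed and at -0.35 ± 0.13 in Spl-Gr1+CD11b+–primed libraries on the log2 scale relative to parental cells. The 17 sterol enzymes stood at -0.09 ± 0.08 and -0.02 ± 0.01, and the 6 regulators at -0.06 ± 0.06 and -0.01 ± 0.04. For fatty acid enzymes every primed library lay below every parental library, while for the other classes primed and parental libraries overlapped. The lowest fatty acid value, -0.54, belonged to Spl-Gr1+CD11b+–primed replicate 3, and the other 3 libraries of that group did not go under -0.30. *Fasn* and *Acaca* weigh heavily in the fatty acid mean, at -0.87 and -0.91 in Tu-Gr1+CD11b+–primed and -0.79 and -0.89 in Spl-Gr1+CD11b+–primed cells. The other enzymes of that class ran from -0.49 (*Fads2*) to 0.17 (*Elovl6*) and from -0.40 to 0.10. These class values carry no test.

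To ask whether the source of the Gr1+ cells mattered, the primed groups were compared with each other. Of the 31 genes, 1 was called, *Dhcr7*, lower in Tu-Gr1+CD11b+–primed cells, while 2.97% of all tested genes were called lower and 4.66% higher, 7.63% together. *Dhcr7* (chr7:143823145-143848410, plus strand) encodes 7-dehydrocholesterol reductase, the enzyme that turns 7-dehydrocholesterol into cholesterol. It was at 39.8, 37.7, 38.1 and 38.0 CPM in parental, at 38.1, 39.2, 40.9 and 40.6 CPM in Spl-Gr1+CD11b+–primed and at 31.3, 32.3, 30.1 and 36.3 CPM in Tu-Gr1+CD11b+–primed libraries. All 4 Tu-Gr1+CD11b+–primed libraries lay below both other groups, which overlapped each other. The difference between the primed groups was -0.29 (SE 0.06, adjusted p = 0.00774 by edgeR's quasi-likelihood test), with -0.24 (adjusted p = 0.00304) against parental cells, where Spl-Gr1+CD11b+–primed cells gave 0.05 (95% interval -0.08 to 0.17). With transcript length offsets the difference between the primed groups was -0.48 and no longer passed (adjusted p = 0.124), and that from parental cells was -0.12 (adjusted p = 0.541), also not called.

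In all, 3 genes (*Hmgcs1*, *Sc5d* and *Insig2*) had every Tu-Gr1+CD11b+–primed library above, and 2 (*Dhcr7* and *Tm7sf2*) every one below, every Spl-Gr1+CD11b+–primed library, with 8.51% and 8.51% of all tested genes. *Tm7sf2* had a difference of -0.31 (adjusted p = 0.0865) and *Insig2* one of 0.14 (adjusted p = 0.15). For the fatty acid enzymes, the differences between the primed groups ran from -0.09 to 0.11. That of *Fasn* was -0.08 (95% interval -0.29 to 0.14) and that of *Acaca* -0.02 (-0.27 to 0.24), so differences of about this width could not be told from 0 with 4 libraries per group. *Scap* had -0.20 (-0.38 to -0.03, adjusted p = 0.148), which did not pass after adjustment.

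Other genes of these pathways, outside the 31, were counted in 4 lists. Their counts stand beside 28% lower and 31.2% higher of all tested genes in Tu-Gr1+CD11b+–primed cells, and 22.5% and 25.7% in Spl-Gr1+CD11b+–primed cells. Of 9 tested genes of sterol synthesis and uptake, 5 were called lower and 2 higher in Tu-Gr1+CD11b+–primed than in parental cells, and 4 and 1 in Spl-Gr1+CD11b+–primed cells. In this short list, the shares called lower are above those of all tested genes and the shares called higher are below them. *Cyb5r3*, a cytochrome b5 reductase, fell by 0.40 (adjusted p = 5.02e-05) in Tu-Gr1+CD11b+–primed cells, and *Npc1*, a lysosomal cholesterol exporter, by 0.25 (adjusted p = 0.00226) in Spl-Gr1+CD11b+–primed cells.

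Among 6 genes of SREBP processing and of the degradation of sterol sensors, 1 was called lower and 3 higher in Tu-Gr1+CD11b+–primed, and 1 and 2 in Spl-Gr1+CD11b+–primed cells. The ubiquitin ligase genes *Syvn1* and *Rnf145* rose by 0.57 and 0.44 in Tu-Gr1+CD11b+–primed cells (adjusted p = 2.13e-05 and 3.9e-05) and by 0.63 and 0.27 in Spl-Gr1+CD11b+–primed cells (adjusted p = 2.33e-05 and 0.00273). Of 18 other lipogenic genes, 6 were lower and 2 higher in Tu-Gr1+CD11b+–primed, and 4 and 2 in Spl-Gr1+CD11b+–primed cells, so the shares called lower are near those of all tested genes and the shares called higher are below them. *Dgat1*, which makes triglyceride, rose by 0.72 and 0.58 (adjusted p = 6.58e-05 and 0.000613), *Acsl4*, an acyl-CoA synthetase, by 0.64 in Tu-Gr1+CD11b+–primed cells (adjusted p = 0.000233), and *Agpat2*, an acyltransferase of phosphatidate synthesis, fell by 0.43 and 0.34 (adjusted p = 0.00057 and 0.00389). *Elovl1*, an elongase, fell by 0.35 in Spl-Gr1+CD11b+–primed cells (adjusted p = 0.00207).

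Of 7 tested genes of LXR, sterol efflux and esterification, 0 were lower and 2 higher in Tu-Gr1+CD11b+–primed than in parental cells, and 2 lower and 1 higher in Spl-Gr1+CD11b+–primed cells (edgeR's quasi-likelihood test). *Apoe*, a lipid-carrying apolipoprotein, rose by 0.97 (adjusted p = 0.0148) and 1.46 (adjusted p = 0.00133). Its level was near the floor, at 0.96 to 1.60 CPM in Tu-Gr1+CD11b+–primed, 1.41 to 2.72 CPM in Spl-Gr1+CD11b+–primed and 0.34 to 0.86 CPM in parental libraries. *Abca1*, the exporter of cholesterol, was low, at 1.84 to 3.46 CPM in Tu-Gr1+CD11b+–primed, 0.98 to 1.39 CPM in Spl-Gr1+CD11b+–primed and 1.61 to 2.16 CPM in parental libraries, and rose in the former (0.52, adjusted p = 0.0378) and fell in the latter (-0.61, adjusted p = 0.0285), with a difference of 1.13 between the primed groups (adjusted p = 0.00357). *Lpcat3*, a phospholipid acyltransferase, was lower in Spl-Gr1+CD11b+–primed than in parental cells (-0.22, adjusted p = 0.00385) and higher in Tu-Gr1+CD11b+–primed than in Spl-Gr1+CD11b+–primed cells (0.19, adjusted p = 0.0448). Between the primed groups, *Npc2*, a lysosomal cholesterol-binding protein, was higher (0.45, adjusted p = 0.000594) and *Cyb5r3* lower (-0.20, adjusted p = 0.0448) in Tu-Gr1+CD11b+–primed cells. These were 1 higher and 1 lower of the 9 sterol synthesis and uptake genes, 2 higher of the 7 LXR genes, and 0 of the 6 processing and 18 lipogenic genes, beside 4.66% higher and 2.97% lower of all tested genes.

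Base composition moved with these results. Over 12550 genes, the log2 fold change against parental cells correlated with the GC content of transcripts at r = -0.22 in Tu-Gr1+CD11b+–primed and -0.16 in Spl-Gr1+CD11b+–primed cells, and over the 31 genes at r = -0.57 and -0.44, a description across genes that share libraries. *Insig2* (46.1% GC) and *Sc5d* (44.4%) are poor in GC, whereas *Fasn* (58.3%), *Scap* (59.1%) and *Srebf2* (57.7%) are rich in it, and *Acaca* (49.2%) is near the median of all genes (49.97%). After a GC trend had been removed from each library, an alternative chosen after the data had been seen, *Fasn* still fell by 0.69 and 0.71, *Acaca* by 0.92 and 0.91, *Scap* by 0.51 and 0.41 and *Srebf2* by 0.30 and 0.32, and *Insig2* still rose by 0.69 and 0.57 and *Sc5d* by 0.56 and 0.49. Each of these passed the test.

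**Figure D5:**
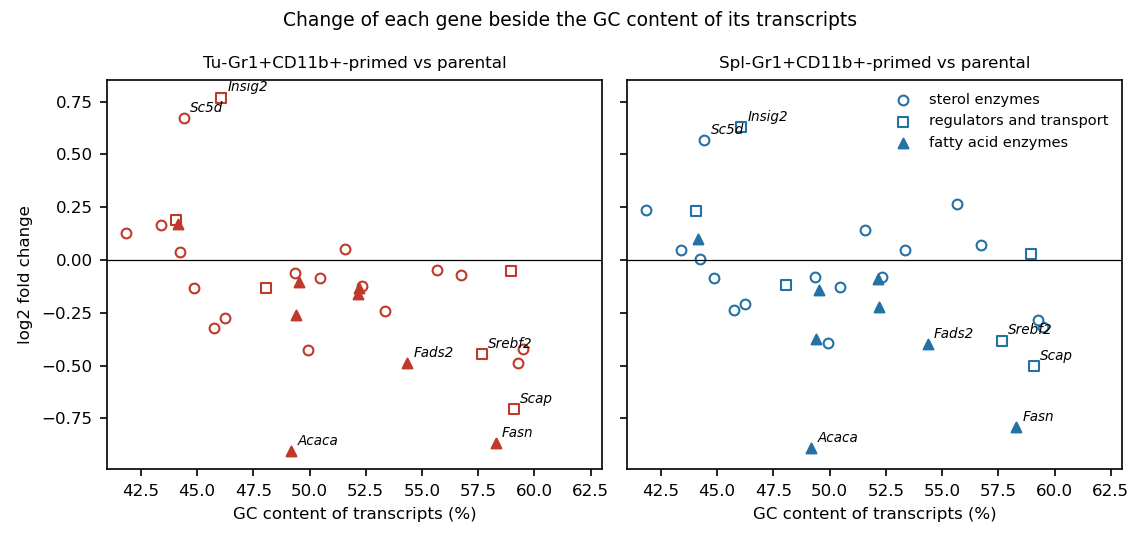
Log2 fold change against parental 4T1 (vertical axis) beside the GC content of the transcripts (horizontal axis, percent) for the 31 genes in Tu-Gr1+CD11b+–primed (left) and Spl-Gr1+CD11b+–primed cells (right); filled triangles are fatty acid enzymes, circles sterol enzymes and squares regulators. *Fasn* (58.3% GC) and *Scap* (59.1%) lie low on the right and *Insig2* (46.1%) and *Sc5d* (44.4%) high on the left, and *Acaca* (49.2%) is the lowest point in both panels.

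The kind of transcript differed as well. Transcripts annotated as retained intron or as targets of nonsense-mediated decay took 5.64% to 5.83% of reads in Tu-Gr1+CD11b+–primed, 5.37% to 6.13% in Spl-Gr1+CD11b+–primed and 3.93% to 4.35% in parental libraries. Among the 31 genes, the share of reads on transcripts not annotated as protein coding was above every parental library in all 4 Tu-Gr1+CD11b+–primed libraries for 14 genes and below for 0 (23.2% and 0.87% of 11956 protein-coding genes), and above in all 4 Spl-Gr1+CD11b+–primed libraries for 11 and below for 0 (21.1% and 0.836%). Between the primed groups it was 0 above and 0 below (2.02% and 0.887%). For *Fasn* this share was 1.27% to 1.39% in parental and 1.82% to 2.68% in Tu-Gr1+CD11b+–primed libraries. In Spl-Gr1+CD11b+–primed replicate 3 it was 11.9%, with 889 reads on a retained-intron transcript of *Fasn*, compared with 83.0 to 127 reads in the other 3 libraries of that group. Counted on protein-coding transcripts alone, the number of fatty acid enzymes called lower was 4 and 5, compared with 5 and 5. Without Spl-Gr1+CD11b+–primed replicate 3 it was 5 and 5, and without parental replicate 4 also 5 and 5. Without parental replicate 4, 3 sterol enzymes were called lower in Spl-Gr1+CD11b+–primed cells instead of 5.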

How the data were processed

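Per the labels, RNA of 12 libraries (TruSeq Stranded) was sequenced, and the submitters' processing notes name FastQC, Trimmomatic 0.39, Salmon 1.4.0 and the builds GRCm38 and mm10. The annotation release is not given in the sources used here. The deposited tables, 1 per library, hold an estimated count for each Ensembl transcript, which the authors' quantification made and did not normalize, and the authors' TPM values and effective lengths. A further deposited table of normalized values per gene was not used.

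Of 117081 transcripts, 116021 were found in GENCODE M21 (GRCm38), and the rest held at most 0.419% of a library's reads. Counts of all transcripts of a gene were added up and rounded. Such estimates divide reads among similar transcripts, so close paralogs can share reads. Genes were filtered with filterByExpr (12555 kept) and scaled by TMM. The factors were 0.88 to 0.95 in parental, 1.01 to 1.05 in Spl-Gr1+CD11b+–primed and 1.04 to 1.05 in Tu-Gr1+CD11b+–primed libraries. Testing used a single fit of the 12 libraries with the quasi-likelihood test of edgeR (R 4.3.3, edgeR 4.0.16, limma 3.58.1). Benjamini-Hochberg adjustment ran over all tested genes, with a threshold of 0.05. Tests were two-sided and tried on simulated data. Precision rests on the spread of 4 libraries per group at 24566183 to 31637755 reads each. No pair of libraries of a group agreed within sampling noise. Tables and plots used Python 3.11.15, pandas 2.3.3, numpy 2.4.6 and matplotlib 3.10.9. RefSeq windows on GRCm38.p6 were searched on both strands, and for genes with several windows the one nearest to the start of the transcript with the most reads was taken.

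The genes and lists were chosen with earlier results of these data known. All 31 genes were named. Values in every library were given for members called between the primed groups and, in each class, for at least the 3 of smallest p in each direction against parental cells. Of the other lists, fold changes were given for genes among the 3 of smallest p in a comparison. The results of some genes of these lists are not reported here. Alternatives were DESeq2 1.42.0, RLE normalization, other filters, only the 8 libraries compared, a replicate block, transcript length offsets, protein-coding transcripts, an adjusted p under 0.01, leaving out each library, and GC-content offsets, the last added after seeing the data.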

Additional observations from a re-analysis of the deposited data

Results flagged for a closer look

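*Insig2* in replicate 2 of the Spl-Gr1+CD11b+–primed cells, at 46.0 CPM, lay apart from the other 3 libraries of its group, which stood between 43.5 and 43.9 CPM, by Dixon's test at the 95% level. It was the only 1 of 93 groups of 4 values so marked, where chance marks about 1 in 20. The library lay above all parental and below all Tu-Gr1+CD11b+–primed libraries, as the other 3 did.

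The response of *Dhcr7* against parental cells differed between the primed groups, by -0.29 on the log2 scale (edgeR's quasi-likelihood test, adjusted p = 0.00774), with all 4 Tu-Gr1+CD11b+–primed libraries below all 4 Spl-Gr1+CD11b+–primed libraries.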

How the results depend on the processing

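Under the alternatives, 378 recomputed counts of genes stayed within 1.5 times the reported count and 18 did not. Of recomputed fold changes, 1138 kept their direction and side of the threshold, 44 lost the call, 36 gained one and 14 changed sign. This tally covered 56 fold changes and not all of them. They were those called in the main fit or under an alternative, and differences between the primed groups for genes with larger changes against parental cells in both. The decreases of *Fasn*, *Acaca*, *Scap*, *Srebf2*, *Fads2* and *Nsdhl* and the increases of *Insig2* and *Sc5d* against parental cells held in both primed groups under all 22 alternatives, although with transcript length offsets that of *Fasn* in Spl-Gr1+CD11b+–primed cells was -0.38 in place of -0.79.

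For Tu-Gr1+CD11b+–primed against parental cells, transcript length offsets left 3 fatty acid enzymes lower instead of 5 (*Scd1* and *Acly* lost) and gave 2 regulators higher instead of 1, as did GC-content offsets, the added gene being *Srebf1* (0.52 and 0.14 in place of -0.05). GC-content offsets turned *Idi1* to -0.0724. Leaving out 1 library at a time gave 1 to 3 sterol enzymes, 1 to 2 regulators and 0 to 1 fatty acid enzymes higher, with the highest counts without parental replicate 2. For Spl-Gr1+CD11b+–primed cells, transcript length offsets left 2 sterol enzymes lower instead of 5 and gave 2 regulators higher. An adjusted p under 0.01 left 1 sterol enzyme higher and 2 lower. Leaving out 1 library gave 3 to 6 sterol enzymes lower (3 without Spl-Gr1+CD11b+–primed replicate 1, 2 or 4 or parental replicate 1 or 4) and 1 to 2 regulators higher (2 without parental replicate 2).

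Between the primed groups, transcript length offsets left 0 sterol enzymes lower (*Dhcr7* lost), and leaving out 1 library gave 1 to 2 (2 without Tu-Gr1+CD11b+–primed replicate 4, the other being *Pmvk*). The difference of *Insig2*, 0.14 in the main fit, changed sign to -0.0808 (length offsets). Smaller differences also changed sign: *Ebp* to 0.0066 (protein-coding transcripts) and -0.0717 to 0.0066 (leaving out 1 library), *Srebf2* to 0.0213 and *Fasn* to 0.017 (GC-content offsets), and *Acaca* to 0.19 (length offsets), 3.5e-05 (no filter) and -0.12 to 0.0716 (leaving out 1 library). None of these passed the test. The cause of these changes was not tested.

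Same-numbered libraries showed correlations of deviations between -0.16 and 0.15, so the numbers were not shown to pair samples. With a replicate block, 5 fatty acid enzymes were lower in each primed group, 6 and 4 sterol enzymes lower and 1 and 3 higher, and *Dhcr7* was still the only gene called between the primed groups. With 4 libraries per group, changes under about 0.15 on the log2 scale against parental cells were mostly not called. Between the primed groups, larger differences also went uncalled, such as -0.31 for *Tm7sf2* and -0.21 for *Mvd*, while *Dhcr7* was called at -0.29.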
